A study of Homo sapiens with 36 samples.

Results

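The ZNF-numbered genes are human genes named ZNF followed by a number, most of which encode DNA-binding proteins built from runs of C2H2 zinc fingers. They were followed in THP-1, a human line of monocytic leukaemia cells, whose RNA was read on HumanHT-12 v4 bead arrays from Illumina. The members were chosen by measured values, the detection p and the mean signal: a gene was taken where its platform symbol was ZNF with digits and at most 1 further letter, and its brightest probe had a detection p under 0.05 on all 36 arrays. Of 483 such symbols on the platform, 402 were among the 13582 genes tested and 232 met the rule, of 8157 genes in all that were detected on every array. The RefSeq gene table lists 228 of the 232 as protein-coding and 4 as transcribed pseudogenes (ZNF252P, ZNF286B, ZNF788P and ZNF876P). Because the rule asked for detection in every group, a gene that LPS or time took below background could not become a member, and 25 genes were left out by 1 array alone. Just inside the rule were ZNF335, whose highest detection p was 0.04935, and ZNF716 and ZNF804A, both at 0.04675; just outside were ZNF304 and ZNF426, both at 0.05325, and ZNF776 at 0.05844.

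The study treated 1 human cell line, so nothing in it stands for a range of donors. A vehicle of 0.1% DMSO and 0.001% BSA and a pretreatment of 15 min are listed for all 12 groups. Control cells received vehicle only. The other groups received 1 nM of gp120, the envelope protein of HIV-1 (strain SF162), 1 µg/ml of bacterial lipopolysaccharide (LPS), the p38 MAPK inhibitor SB203580 (SB, 10 µM, started 15 min ahead), or SB together with gp120 or with LPS. Each of these 6 conditions was sampled after 4 h and after 24 h with 3 biological replicates, which made 12 groups and 36 arrays. The question addressed here is how much of the cells' zinc-finger repertoire moves with LPS, gp120, p38 inhibition and time.

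C2H2 zinc-finger genes form the largest group of human transcription factors, and many lie in clusters of related neighbours that arose by duplication. A large share carries a KRAB domain, which binds the scaffold protein TRIM28; TRIM28 in turn brings the histone methyltransferase SETDB1 and the NuRD and HP1 proteins, and the bound locus, often a transposable element, is silenced. Others are activators, splicing factors, mitotic proteins or ribosome factors that share the name and the finger but not the repressor role. LPS is sensed by TLR4, which turns on NF-kB and the MAP kinases, p38 among them.

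The mean raw signal of an array ran from 403.38 to 1571.81, and 34.8% to 44.38% of its probes were detected. The dimmest arrays were replicate 1 of LPS and replicate 1 of SB+LPS, both at 4 h, and counts, shifts and the calls of named genes that rest on them are given below without them too. Of the 11 monocytic markers examined, 9 were detected on all arrays (LYZ, SPI1, ITGB2, ITGAM, CSF1R, FCER1G, TYROBP, CD68 and AZU1), MPO was detected on 15, and CD33 had no value; of the markers of other cell types, CD3E, CD8A, KRT5 and CDH1 were detected on 0 arrays, EPCAM on 2, ALAS2 on 4, MS4A1 on 5, HBB on 7, CD3D on 8 and the B cell marker CD79A on 31. The arrays sat on 3 slides, and each group lay on 1 slide only: slide 1 held control, gp120, LPS and SB at 24 h, slide 2 held control and gp120 at 4 h with SB+gp120 and SB+LPS at 24 h, and slide 3 held the 4 remaining groups of the 4 h series. Where a comparison crosses slides, its results from a model with slide are given too, though not for every gene named. With each group on 1 slide, such a model can be had only by taking the 3-way interaction of stimulus, SB and time to be 0, which was not tested; its value is another reading under that assumption and no correction. Its standard errors were 1.41 to 2.65 times as large for the comparisons that cross slides, so a call can be lost there at an equal difference. Fewer cells of a kind and less RNA per cell cannot be told apart in these bulk samples. Differences are log2 values after background correction and quantile normalisation, an error is a standard error from limma's fit over all 36 arrays, and "called" means a Benjamini-Hochberg adjusted p under 0.05 over the 13582 genes. With 3 arrays a group, the smallest two-sided p of an exact permutation test is 0.1, so the calls rest on the spread pooled over the groups. Called genes named as the largest risers or fallers were taken only where the arrays of the 2 groups did not overlap. Where that separation is stated for them, it follows from the choice and adds no support.

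Set beside other genes of the same mean signal, the ZNF genes as a group stood highest in resting and gp120-treated cells at 4 h and lowest in LPS-treated cells pretreated with SB at 24 h. The relative level of an array is the median over the 232 ZNF genes of each gene's deviation from its own 36-array mean, less the same median over other genes of equal signal. It averaged 0.16 in control at 4 h (0.13 to 0.18 over 3 arrays), 0.17 in gp120, 0.06 in LPS, 0.06 in SB, 0.01 in SB+gp120 and −0.06 in SB+LPS. At 24 h it averaged 0.01 in control (−0.03 to 0.03), −0.02 in gp120, −0.11 in LPS (−0.12 to −0.09), −0.07 in SB, −0.06 in SB+gp120 and −0.17 in SB+LPS (−0.18 to −0.16). The pooled standard deviation within groups was 0.05. Control and LPS arrays did not overlap at 24 h, where they share a slide; at 4 h replicate 3 of LPS stood at 0.18, level with the highest control array. Without the dim replicate 1 the means of LPS and SB+LPS at 4 h were 0.10 and −0.06. With equal array medians the relative level averaged 0.17 and 0.06 in control and LPS at 4 h, and 0.01 and −0.11 at 24 h. Such a scaling moves all genes of an array by 1 amount, which cancels in this score. The likeness is therefore no check on the scaling. No test is given for this score, since the genes were chosen with results of these arrays known.

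**Figure D1:**
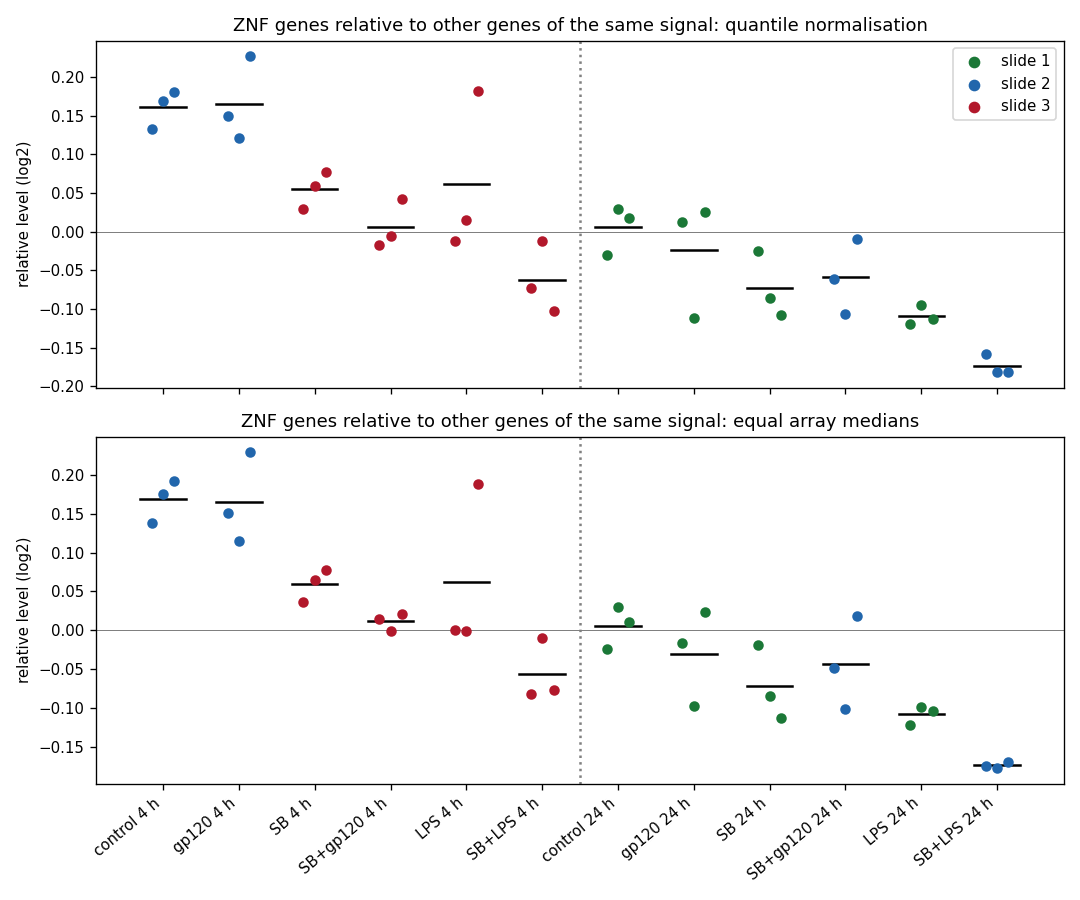
Relative level of the 232 ZNF genes (log2, vertical axis) on each of the 36 arrays by group, after quantile normalisation (top) and after scaling to equal array medians (bottom); points are arrays coloured by slide and lines are group means. Control and gp120 at 4 h lie highest (means 0.16 and 0.17), SB+LPS at 24 h lowest (−0.17), and the order is alike under both scalings. A constant added to an array cancels in this level, so the likeness is no check on the scaling.

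LPS for 4 h raised 13 and lowered 46 of the 232 ZNF genes. The 59 called genes are 25.4% of the members, beside 26.7% of all genes tested and 29.1% of the 7925 other genes detected on all arrays. Calls to the lower side made up 19.8% of the members, beside 16.2% of all genes, and calls to the higher side 5.6%, beside 10.5%. The median ZNF gene differed by −0.18 and the median of other genes of equal signal by −0.03, a shift of −0.16. This shift was −0.16 with equal medians, but −0.02 in the model with slide. Control lay on slide 2 and LPS on slide 3, and the slide's part in the shift was not tested. The split of the calls hung on the scaling: with equal medians over all probes, where the all-gene median shifted by −0.62, it was 1 higher (ZNF697) and 155 lower, and with equal medians over the probes detected on every array it was 23 higher and 37 lower. With slide as a term 2 members were called, ZNF697 higher and ZNF480 lower, beside 425 of all 13582 genes. For the other settings here the share of all genes called is not given, so those counts are no result about ZNF genes alone. Without the 2 dimmest arrays 29 members were called in place of 59, at a shift of −0.11, and of the 12 genes named below ZNF366 (1.10) and ZNF439 (−0.69) were no longer called. The fit to only the 2 groups compared called 21. Without replicate 1 of LPS alone the count was 28, and without replicate 3 of control 38. The 170 ZNF genes that were tested but missed the detection rule had a median difference of −0.36, with 1 called higher and 40 lower. These calls are 24.1% of the 170, beside 26.7% of all genes. With slide their median was −0.44, beside −0.12 for all genes, with 1 called higher and 7 lower. Their medians were not matched for signal.

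**Figure D2:**
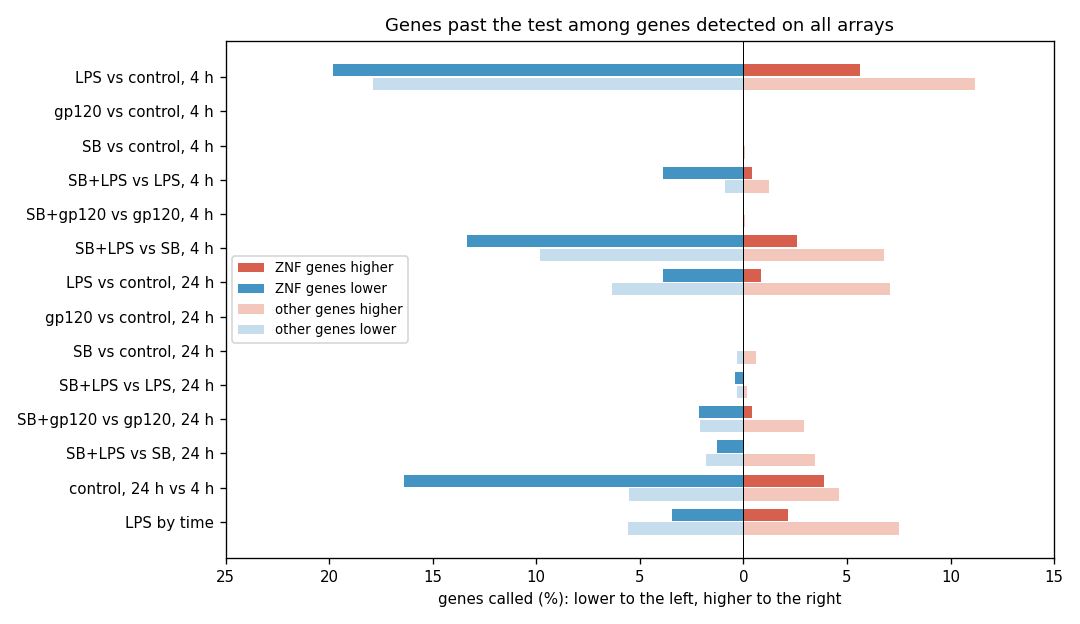
Share of the 232 ZNF genes (dark bars) and of the 7925 other genes detected on all arrays (pale bars) called higher (red, right) or lower (blue, left) in each of 14 comparisons, in percent of the genes. ZNF genes have fewer higher calls than other genes with LPS at 4 h (5.6% against 11.2%) and at 24 h (0.862% against 7.09%), and more lower calls between the control groups at 24 h and 4 h (16.4% against 5.51%).

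The highest riser was ZNF697, a zinc-finger gene with little described function. Its log2 intensity was 8.22, 7.79 and 7.57 in the control arrays at 4 h and 11.16, 9.85 and 11.11 with LPS. All 3 LPS arrays lay above all controls, by 2.84 ± 0.33 on average or 7.18-fold (adjusted p = 1.81e-07), and the difference was 3.55 with slide as a term (adjusted p = 0.00123) and 2.00 with equal medians over all probes. ZNF697 also had the widest range of group means of all members, 4.16 log2 units. ZNF746, the parkin-interacting repressor of PGC-1α known as PARIS, read 10.17, 10.03 and 9.88 in control and 11.91, 10.82 and 11.03 with LPS. Those groups did not overlap either, and the difference was 1.23 ± 0.19 (adjusted p = 1.67e-05). ZNF638, an RNA- and DNA-binding protein known to bring the HUSH silencing complex to retroviral DNA, read 8.09, 7.88 and 8.14 in control and 9.47, 8.90 and 9.09 with LPS. It rose by 1.11 ± 0.18 (adjusted p = 2.23e-05). ZNF366, the dendritic-cell nuclear receptor corepressor DC-SCRIPT, read 9.90, 9.83 and 9.42 in control and 10.70, 11.03 and 10.62 with LPS, a rise of 1.06 ± 0.38 (adjusted p = 0.0388). ZNF33A rose by 1.04 ± 0.22 (adjusted p = 0.000731) and ZNF691 by 0.84 ± 0.17 (adjusted p = 0.000364). ZNF691 reversed to −0.02 with equal medians over all probes and to −0.13 with slide, and of these 6 risers ZNF697 alone stayed called under each of those settings. With slide ZNF746, ZNF638, ZNF366 and ZNF33A came to 0.90, 1.03, 2.03 and 0.69.

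The windows of 250 bases ahead of the transcription start were read for these genes from RefSeq (GRCh38.p14), where 198 of the 232 members had one. A consensus site of NF-kB, the factor that TLR4 signalling activates, was searched on both strands of these windows of 250 bases. It stood in 9.57% of all 27303 promoters, in 20 of 198 members (10.1%), in 4 of the 11 members with a window that LPS raised at 4 h and in 6 of the 40 that it lowered (15%). A match is a run of letters and no evidence of binding. The windows of 3 risers that hold a match and of ZNF140, a KRAB gene that rose by 0.80 and holds a core motif of the activator ZNF143 on its other strand at 2 places, are printed for inspection, followed by ZNF362, which fell and also holds an NF-kB match. Capitals mark the match, and each window ends at the last base before the start.
ZNF697 (chr1:119648267-119648516, minus strand): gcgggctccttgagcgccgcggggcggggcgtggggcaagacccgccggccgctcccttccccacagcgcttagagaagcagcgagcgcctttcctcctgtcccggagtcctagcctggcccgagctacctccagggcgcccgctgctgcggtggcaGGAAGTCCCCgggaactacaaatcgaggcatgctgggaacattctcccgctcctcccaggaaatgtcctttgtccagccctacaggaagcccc
ZNF638 (chr2:71331532-71331781, plus strand): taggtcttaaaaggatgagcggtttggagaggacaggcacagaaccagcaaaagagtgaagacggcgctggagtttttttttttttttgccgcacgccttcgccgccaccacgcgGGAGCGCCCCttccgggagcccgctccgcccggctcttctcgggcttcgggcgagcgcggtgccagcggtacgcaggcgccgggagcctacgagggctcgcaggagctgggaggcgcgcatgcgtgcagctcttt
ZNF33A (chr10:38010425-38010674, plus strand): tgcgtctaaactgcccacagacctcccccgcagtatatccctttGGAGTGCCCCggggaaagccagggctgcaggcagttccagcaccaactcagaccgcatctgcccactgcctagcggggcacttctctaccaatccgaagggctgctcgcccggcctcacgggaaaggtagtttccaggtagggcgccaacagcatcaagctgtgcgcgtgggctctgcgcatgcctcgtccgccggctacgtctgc
ZNF140 (chr12:133080673-133080922, plus strand): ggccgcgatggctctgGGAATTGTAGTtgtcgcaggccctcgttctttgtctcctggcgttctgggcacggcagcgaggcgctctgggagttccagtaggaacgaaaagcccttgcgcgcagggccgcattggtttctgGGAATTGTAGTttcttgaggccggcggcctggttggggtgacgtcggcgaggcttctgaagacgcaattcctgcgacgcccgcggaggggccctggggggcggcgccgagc
ZNF362 (chr1:33256242-33256491, plus strand): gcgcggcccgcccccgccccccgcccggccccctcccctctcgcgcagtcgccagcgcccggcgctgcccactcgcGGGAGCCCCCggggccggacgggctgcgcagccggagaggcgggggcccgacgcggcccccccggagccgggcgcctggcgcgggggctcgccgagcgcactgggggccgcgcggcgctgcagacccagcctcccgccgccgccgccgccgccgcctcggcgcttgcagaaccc

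The windows of ZNF genes differed from other promoters in composition. Their median GC content was 61.6%, beside 58% for all promoters. The letters TATAAA stood in 2.02% of the ZNF windows and in 11.1% of all, and the cAMP-response motif TGACGTCA in 4.55% and 1.77%. The AP-1 motif TGANTCA stood in 7.07% and 6.6%. The core motif of ZNF143, itself a member, stood in 0.249% of all promoters and in 4 of the 198 ZNF windows (2.02%), those of ZNF140, ZNF277, ZNF317 and ZNF451.

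Of the genes that LPS lowered at 4 h, ZNF362 read 9.55, 10.00 and 9.91 in control and 7.47, 8.87 and 8.68 with LPS. It fell by 1.48 ± 0.24 on the log2 scale (adjusted p = 2.62e-05), and replicate 1 of LPS, one of the dimmest arrays, was the lowest. ZNF521, a regulator of blood progenitors that binds NuRD, read 10.04, 10.13 and 10.25 in control and 8.58, 9.15 and 8.79 with LPS. Its fall of 1.30 ± 0.24 (adjusted p = 0.000135) was nearly equal with slide as a term, −1.32, though no longer called (adjusted p = 0.141). ZNF658 read 8.67, 9.04 and 8.87 in control and 6.77, 8.08 and 7.85 with LPS, a difference of −1.29 ± 0.32 (adjusted p = 0.0032). In each of these genes the LPS arrays lay below all controls. ZNF25, ZNF439 and ZNF275 differed by −1.32, −1.27 and −1.13, and ZNF25 came to 0.03 with slide as a term. With slide ZNF362, ZNF658, ZNF439 and ZNF275 came to −0.64, −1.15, −0.88 and −1.18. Among the genes with known roles, ZNF148 and ZNF281, which bind GC-rich promoter elements, differed by −0.79 ± 0.25 and −0.66 ± 0.19; ZNF207, the spindle protein BuGZ, by −0.54 ± 0.18; and ZNF217, a corepressor subunit amplified in breast cancer, by −0.61 ± 0.19 (adjusted p = 0.0193, 0.0121, 0.0248 and 0.0173). ZNF91, a repressor of SVA retrotransposons, differed by −0.87 ± 0.30 (adjusted p = 0.0309).

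**Figure D3:**
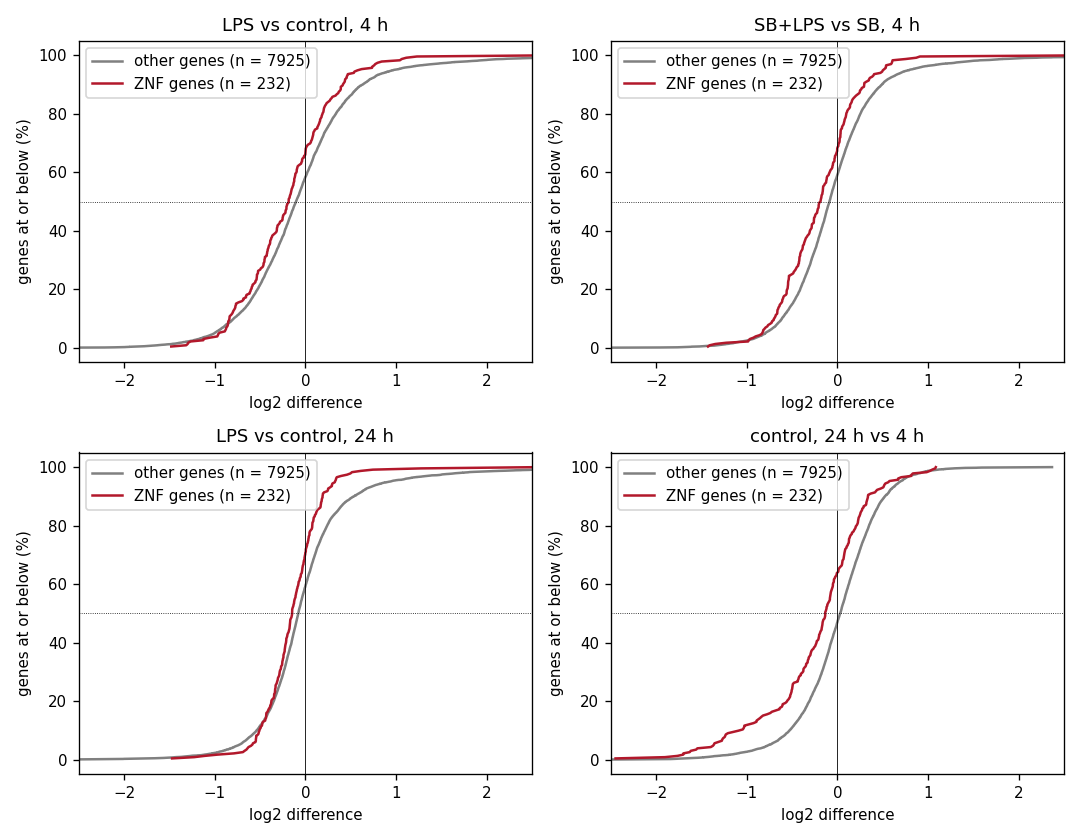
Cumulative share (percent, vertical axis) of ZNF genes (red, n = 232) and of other genes detected on all arrays (grey, n = 7925) at or below each log2 difference, in 4 comparisons. The ZNF curve lies to the left of the other genes: 66.38% of ZNF genes against 58.36% of other genes were below 0 with LPS at 4 h, and 63.79% against 46.93% between controls at 24 h and 4 h.

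LPS was compared with its own SB-matched control at 4 h on other arrays, SB+LPS against SB, all on slide 3. There 37 ZNF genes were called, 6 higher and 31 lower (15.9% of the members, beside 15.6% of all genes; higher calls were 6.04% of all genes and 6.76% of the others detected on all arrays, lower calls 9.55% and 9.8%), and the shift against other genes of equal signal was −0.13, and −0.14 with equal medians. With equal medians over all probes the calls were 1 higher and 132 lower, and with equal medians over detected probes 12 and 21. The fit to only the 2 groups compared called 7. Without the 2 dimmest arrays 24 were called, at a shift of −0.11, and ZNF675, ZNF140, ZNF225 and ZNF654 lost their calls at differences of 0.76, 0.64, 0.44 and −0.85. Leaving out 1 array gave 21 (SB replicate 1), 17 (SB replicate 2) and 19 (SB+LPS replicate 1). The 2 comparisons share no array, and 18 lowered genes were common to both, 39.1% of the 46 and 58.1% of the 31. All 4 shared risers are ZNF140, ZNF638, ZNF697 and ZNF746. The same overlap was not counted for other genes, so it is no result about ZNF genes alone. Pearson's r between the differences was 0.699 over the 232 ZNF genes and 0.881 over the other genes, across genes that are no independent replicates and with the LPS and SB+LPS arrays on 1 slide.

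Within that slide ZNF697 stood at 8.60, 7.58 and 8.66 with SB and at 11.69, 10.33 and 11.60 with SB+LPS. The difference was 2.93 ± 0.33 or 7.60-fold (adjusted p = 1.53e-07), close to that without SB, and replicate 2 was the lowest array of both groups. ZNF638 differed by 0.87 ± 0.18 (adjusted p = 0.000795) and ZNF746 by 0.60 ± 0.19 (adjusted p = 0.0302), which became −0.26 with equal medians over all probes. ZNF675, known as TIZ, an inhibitor of TRAF6 signalling, read 6.21, 6.72 and 7.02 with SB and 7.87, 7.62 and 7.20 with SB+LPS, a rise of 0.91 ± 0.27 (adjusted p = 0.0175). ZNF140 and ZNF225 rose by 0.59 ± 0.20 and 0.54 ± 0.18 (adjusted p = 0.0375 and 0.043) and became −0.27 and −0.24 with equal medians over all probes. ZNF480 fell from 9.21, 9.41 and 9.13 to 7.57, 8.38 and 7.56, by 1.41 ± 0.21 (adjusted p = 1e-05). ZNF503, a developmental repressor, read 9.40, 8.96 and 8.65 with SB and 7.92, 7.68 and 7.13 with SB+LPS, a difference of −1.43 ± 0.27 (adjusted p = 0.00032). The groups did not overlap in either gene. ZNF562, ZNF275, ZNF654 and ZNF670 differed by −1.35, −1.22, −0.99 and −0.98. ZNF148, ZNF281 and ZNF207 were again called, at −0.74 ± 0.25, −0.66 ± 0.19 and −0.61 ± 0.18 (adjusted p = 0.0412, 0.0185 and 0.0189).

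**Figure D4:**
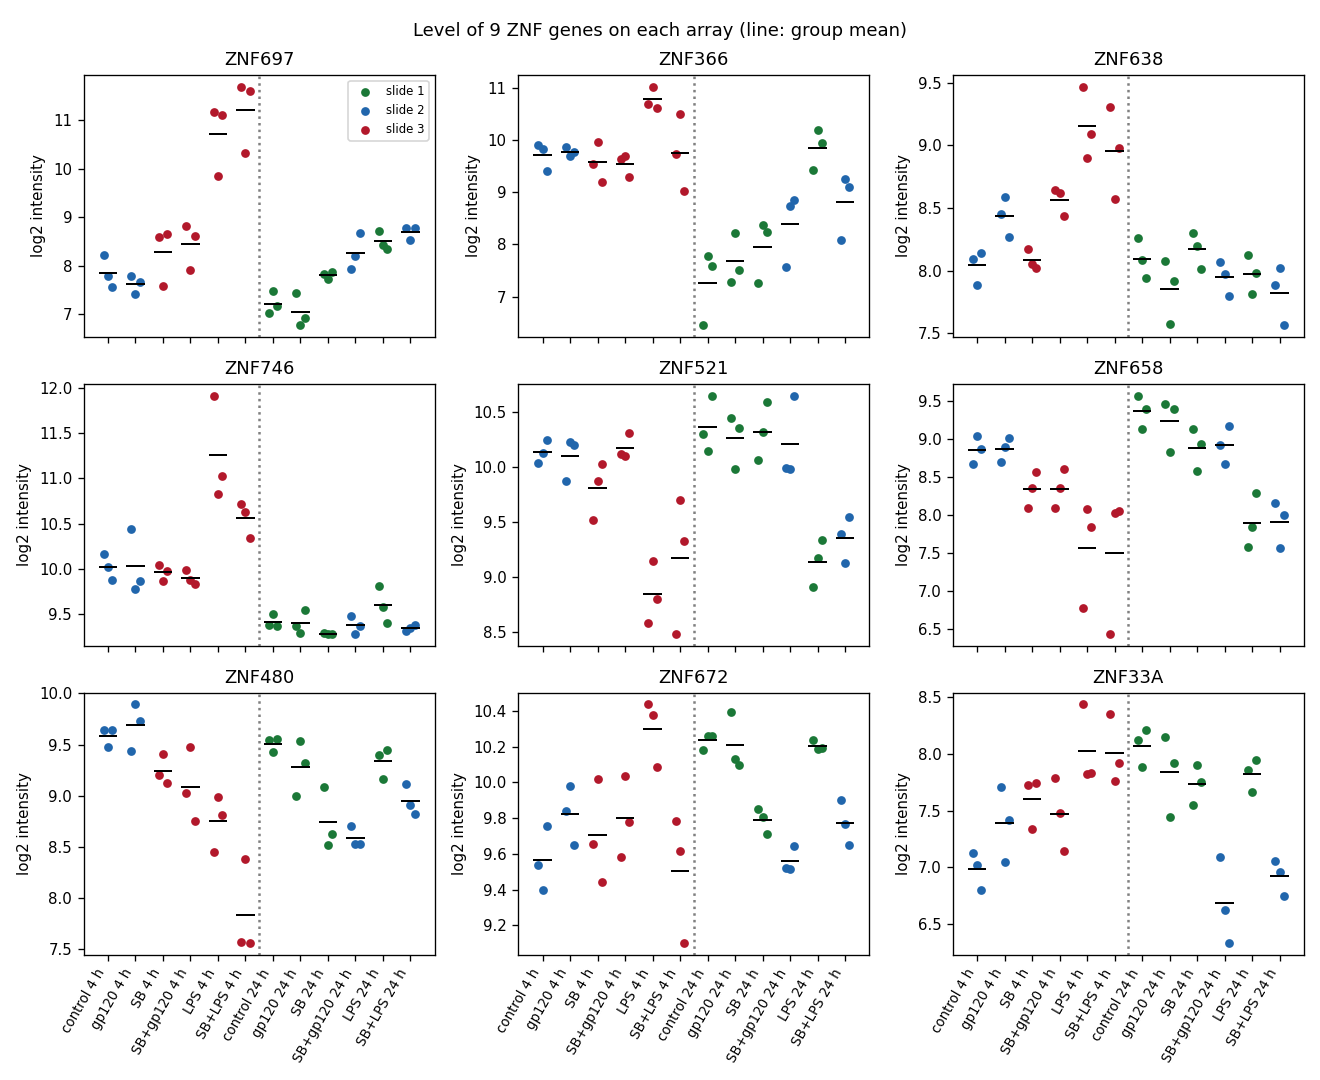
Log2 intensity (vertical axis) of 9 ZNF genes on each array, by group and coloured by slide, with lines at the group means. ZNF697 rises with LPS with and without SB at 4 h (means 10.71 and 11.21, beside 7.86 in control), ZNF366 is low at 24 h except with LPS, ZNF521 and ZNF658 are low with LPS at both times, and ZNF480 is lowest with SB+LPS at 4 h.

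SB given ahead of LPS lowered 9 ZNF genes and raised 1 against LPS alone at 4 h, both groups on slide 3. The 10 called genes are 4.31% of the members, beside 2.16% of all genes tested and 2.12% of the other genes detected on all arrays, and the 9 lowered ones are 3.88%, beside 1.16% of all genes. Higher calls were 1.01% of all genes and 1.25% of the other genes detected on all arrays. The shift was −0.13, and −0.11 with equal medians, under which 0 members were called; with equal medians over detected probes 1 was called higher and 1 lower. With the replicate number as a block 19 were called, and 27 with the block within each time; without the 2 dimmest arrays the count was 2, as it was without replicate 1 of LPS alone, and without replicate 3 of SB+LPS it was 4. ZNF30 and ZNF672 stayed called without those arrays (1.07 and −0.87), and ZNF480, ZNF565, ZNF689, ZNF777 and ZNF614 did not, at −0.93, −1.07, −0.86, −0.60 and −0.53. The fit to only the 2 groups compared called 0. ZNF30 was the riser: it read 6.51, 7.24 and 6.97 with LPS and 7.70, 8.13 and 8.22 with SB+LPS. No LPS array reached the SB+LPS arrays, and the difference was 1.11 ± 0.19 (adjusted p = 0.00149).

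Among the lowered genes, ZNF480 read 8.45, 8.98 and 8.82 with LPS against the SB+LPS values given above, a difference of −0.91 ± 0.21 (adjusted p = 0.0167). ZNF672 read 10.44, 10.38 and 10.09 with LPS and 9.79, 9.62 and 9.10 with SB+LPS, a difference of −0.80 ± 0.17 (adjusted p = 0.00927). Its mean with SB+LPS, 9.50, was near that of control, 9.56. ZNF614 read 10.89, 10.59 and 10.77 with LPS and 9.93, 10.36 and 9.95 with SB+LPS, which is −0.67 ± 0.17 (adjusted p = 0.0359). Groups did not overlap in these 3 genes. ZNF565, ZNF777 and ZNF689 differed by −0.94 ± 0.26, −0.76 ± 0.20 and −0.73 ± 0.20 (adjusted p = 0.0489, 0.0407 and 0.0419), and ZNF235, ZNF35 and ZNF416 by −0.59, −0.61 and −0.61. Second probes did not carry all of these calls: that of ZNF777 gave −0.23 and that of ZNF565, detected on 31 arrays, 0.04. ZNF366 fell by 1.68 on its second probe (adjusted p = 0.0105) and read −1.03 on its brighter probe (adjusted p = 0.165). ZNF697, ZNF638 and ZNF746 were not called for SB+LPS against LPS. All 10 called genes have another ZNF-numbered gene as next protein-coding neighbour, as do 140 of the 228 members whose neighbours could be read.

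After 24 h of LPS 2 ZNF genes were higher and 9 lower than in control, with both groups on slide 1. The 11 genes are 4.74% of the members, beside 11.9% of all genes tested and 13.4% of the other genes detected on all arrays, and the 2 raised ones are 0.862%, beside 6.6%. The 9 lowered ones are 3.88%, beside 5.28% of all genes and 6.35% of the others detected on all arrays. The shift was −0.07, and −0.08 with equal medians, where 2 were called higher and 2 lower; with equal medians over detected probes 3 were higher and 6 lower. Leaving out 1 array at a time gave 4 to 9 calls, the fewest without replicate 1 of LPS. Other fits called more, 18 with only the 2 groups compared, 19 with a replicate block and 25 with that block within each time. ZNF366 read 6.45, 7.77 and 7.58 in control and 9.44, 10.19 and 9.94 with LPS, a rise of 2.58 ± 0.38 or 6.00-fold (adjusted p = 1.05e-05). Its second probe rose by 2.23 (adjusted p = 3.02e-05). ZNF697 read 7.02, 7.48 and 7.17 in control and 8.72, 8.44 and 8.35 with LPS, a rise of 1.28 ± 0.33 (adjusted p = 0.00851). ZNF658 read 9.57, 9.14 and 9.39 in control and 7.57, 7.83 and 8.28 with LPS, a difference of −1.47 ± 0.32 (adjusted p = 0.00157). ZNF521 read 10.30, 10.15 and 10.65 in control and 8.91, 9.17 and 9.34 with LPS, a difference of −1.23 ± 0.24 (adjusted p = 0.000391). In each of these 4 genes the groups were apart, as the choice of the named genes required.

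ZNF438, ZNF436, ZNF443 and ZNF302 differed by −1.11 ± 0.33, −0.97 ± 0.29, −0.69 ± 0.21 and −0.63 ± 0.18 (adjusted p = 0.0217, 0.0251, 0.0309 and 0.0204). The second probe of ZNF436, detected on 33 arrays, read 0.25 (adjusted p = 0.624). Those of ZNF302, detected on 17 and 3 arrays, read −0.46 and −0.19. ZNF512, ZNF16 and ZNF839 completed the list at −0.60, −0.54 and −0.40. With LPS at 4 h, on other arrays, ZNF366, ZNF697, ZNF443, ZNF512, ZNF521 and ZNF658 were called in the same direction as at 24 h. Calls shared by both times were not counted for other genes. Across the 232 genes Pearson's r between the differences at the 2 times was 0.432, and across other genes 0.459. SB+LPS against SB at 24 h lies across slides 1 and 2 and called 3 ZNF genes, all lower (1.29% of the members, beside 5.23% of all genes): ZNF521 at −0.97 ± 0.24, ZNF773 at −0.92 ± 0.26 and ZNF33A at −0.81 ± 0.22 (adjusted p = 0.00969, 0.0356 and 0.0238). With the replicate number as a block 6 were called, with the block within each time 12, and with slide as a term 0. With slide the differences of ZNF521, ZNF773 and ZNF33A were −0.54, −0.14 and −0.53. SB+LPS against LPS at 24 h called ZNF33A alone (0.431%, beside 1.03% of all genes), at −0.90 ± 0.22 (adjusted p = 0.0361), and 0 members with slide as a term. ZNF33A came to −0.62 there with slide. In the fit without slide 15 members had an unadjusted p under 0.05 (6.47%, beside 9.61% of all genes).

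The response to LPS differed between the times for 13 ZNF genes (5.6% of the members, beside 12.2% of all genes), 5 with a more positive difference at 24 h and 8 with a more negative one. More positive ones were 2.16% of the members, beside 7.36% of all genes, and more negative ones 3.45%, beside 4.87%. The shift was 0.08 under both scalings and −0.02 with slide as a term, which called 0 members, and 0.02 without the 2 dimmest arrays, which left 7 calls. With slide ZNF697, ZNF638 and ZNF189 kept differences of −2.27, −1.15 and −1.08, while ZNF217 came to 0.06. The split hung on the scaling: it was 15 positive and 0 negative with equal medians over all probes, where the all-gene median shifted by 0.60, and 1 and 9 with equal medians over detected probes. Leaving out 1 array gave 5 to 15 calls, the fewest without replicate 3 of LPS at 24 h. ZNF638 was raised at 4 h, as given above, and stood at 8.26, 8.08 and 7.94 in control and 8.12, 7.81 and 7.98 with LPS at 24 h. The difference of differences was −1.24 ± 0.25 (adjusted p = 0.00122). ZNF189 rose by 0.77 at 4 h and stood −0.37 apart at 24 h (difference −1.15 ± 0.24, adjusted p = 0.00178), and ZNF33A gave −1.29 ± 0.31 (adjusted p = 0.00605). ZNF697 remained raised at 24 h but by less, −1.56 ± 0.47 (adjusted p = 0.0282). In the other direction ZNF217 gave 0.90 ± 0.27 and ZNF385A, which binds p53 and mRNA, 1.11 ± 0.36 (adjusted p = 0.0256 and 0.04).

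Against control, gp120 called 0 ZNF genes at 4 h and 0 at 24 h, and 0 of all 13582 genes at either time (0%). An unadjusted p under 0.05 was found for 5 members at 4 h (2.16%, beside 1.92% of all genes) and 8 at 24 h (3.45%, beside 2.98%). The groups of each comparison shared a slide, and the shift was 0.00 at 4 h and −0.03 at 24 h. The smallest p-values belonged to ZNF615 (−0.48 ± 0.17), ZNF765 (−0.91 ± 0.36) and ZNF212 (0.31 ± 0.14) at 4 h, each with an adjusted p of 1. At 24 h they belonged to ZNF92 (−0.75 ± 0.23), ZNF146 (−0.40 ± 0.15) and ZNF282 (0.36 ± 0.16), each with an adjusted p of 0.999. ZNF175, known as OTK18, a macrophage factor that acts on the HIV-1 promoter, read 8.41, 8.65 and 8.66 in control and 8.29, 8.16 and 8.50 with gp120 at 4 h. At 24 h it read 8.49, 8.29 and 8.16 in control and 8.49, 8.44 and 8.46 with gp120, so the groups overlapped at both times.

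SB alone called 0 ZNF genes at 4 h (0.14% of all genes, 0.0631% of those detected on all arrays outside the family) and 0 at 24 h (0.913% and 0.934%). An unadjusted p under 0.05 was found for 7 members at 4 h (3.02%, beside 5.5% of all genes) and 17 at 24 h (7.33%, beside 9.37%). At 24 h other fits called a few, 1 each without background correction, with the authors' log2 values and with only the 2 groups compared, 2 with a replicate block and 3 with that block within each time. At 24 h, within slide 1, ZNF480 read 9.55, 9.43 and 9.55 in control and 9.09, 8.52 and 8.63 with SB. That difference of −0.76 ± 0.21 was the nearest to a call (adjusted p = 0.0723), and ZNF296 and ZNF691 gave −0.93 ± 0.27 and −0.57 ± 0.17 (both adjusted p = 0.114). At 4 h, across slides 2 and 3, the shift was −0.10 and became 0.01 with slide as a term. The smallest p-values were those of ZNF217 (−0.56 ± 0.19, adjusted p = 0.439), ZNF33A (0.62 ± 0.22, adjusted p = 0.5) and ZNF131 (−0.58 ± 0.23, adjusted p = 0.703). With slide as a term ZNF217 gave 0.28 and ZNF131 0.33.

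SB+gp120 against gp120 called 0 ZNF genes at 4 h (0.184% of all genes) and 6 at 24 h. At 4 h 27 members had an unadjusted p under 0.05 (11.6%, beside 8.48% of all genes). The 6 are 2.59% of the members, beside 4.64% of all genes, and lie across slides 1 and 2. ZNF697 read 7.45, 6.78 and 6.92 with gp120 and 7.94, 8.20 and 8.68 with SB+gp120, a rise of 1.22 ± 0.33 (adjusted p = 0.0323). ZNF33A read 8.15, 7.45 and 7.92 with gp120 and 7.09, 6.62 and 6.34 with SB+gp120, a difference of −1.15 ± 0.22 (adjusted p = 0.00271). ZNF76, a relative of ZNF143, ZNF480 and ZNF672 gave −0.89 ± 0.24, −0.69 ± 0.21 and −0.65 ± 0.17 (adjusted p = 0.0317, 0.0481 and 0.0236). ZNF224, whose groups overlapped, gave −0.92 (adjusted p = 0.0325). The count was 1 without replicate 2 of gp120, 13 without replicate 3 of gp120 and 2 without replicate 3 of SB+gp120. With slide as a term or with equal medians over all probes 0 were called. With slide the differences of ZNF697, ZNF33A, ZNF480 and ZNF672 were 1.00, −0.87, −1.02 and −0.61, and ZNF76 came to −0.04. At 4 h the smallest p-values were those of ZNF689, ZNF337 and ZNF503, at −0.71, −0.49 and −0.79 (adjusted p = 0.171, 0.298 and 0.298), and ZNF337 became 0.20 with slide as a term.

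Over time, control cells at 24 h had 38 ZNF genes lower and 9 higher than control cells at 4 h. The 47 called genes are 20.3% of the members, beside 9.33% of all genes tested and 10.1% of the other genes detected on all arrays. Lower calls were 16.4% of the members, beside 5.07% of all genes. The shift was −0.16, −0.15 with equal medians, and −0.06 with slide as a term; the groups lie on slides 1 and 2, and with slide 0 members were called, at standard errors 2.65 times as large. The differences of ZNF366, ZNF12, ZNF33A, ZNF395, ZNF438 and ZNF524 were then −2.33, −1.30, 0.81, 0.94, 0.89 and 1.16, and that of ZNF133 0.25. With equal medians over all probes the calls were 0 higher and 51 lower, and over detected probes 11 and 36. The count was 17 without replicate 1 of control at 4 h and 22 without replicate 3 of control at 24 h. ZNF366 fell most, from 9.90, 9.83 and 9.42 to 6.45, 7.77 and 7.58, by 2.45 ± 0.38 (adjusted p = 0.000208), and its second probe fell by 2.27. ZNF12 read 9.22, 9.37 and 9.37 at 4 h and 7.96, 7.89 and 7.22 at 24 h, a difference of −1.63 ± 0.29 (adjusted p = 0.000787). ZNF148 fell by 1.36 ± 0.25, ZNF281 by 1.28 ± 0.19 and ZNF207 by 0.84 ± 0.18 (adjusted p = 0.000981, 0.00015 and 0.00359). No array of either control group crossed into the other in these genes. The risers were led by ZNF33A (1.09 ± 0.22), ZNF395, a hypoxia-responsive factor (1.08 ± 0.28), ZNF438 (1.02 ± 0.33), ZNF133 (0.83 ± 0.16), ZNF775 (0.82 ± 0.22) and ZNF524 (0.81 ± 0.25), with adjusted p from 0.00166 to 0.0469. ZNF451, a SUMO ligase, rose by 0.71 ± 0.17 (adjusted p = 0.00695).

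Many of the genes lowered with time moved together from array to array. Around ZNF549, chosen after the values were seen, 21 members had a Pearson's r of 0.8 or more over the 36 arrays, 9.05% of the members, as had 117 of the other genes (1.48%). The closest members were ZNF394 (0.987), ZNF69 (0.986), ZNF483 (0.973), ZNF14 (0.971) and ZNF876P (0.966), and the retrotransposon repressor ZNF91 and ZNF160, reported to repress TLR4, stood at 0.868 and 0.838. Genes outside the family were as close, such as TMEM17 (0.985), FKBP14 (0.979) and ERAP2 (0.978). The median r between pairs of the 21 was 0.853, and 0.681 once group means were taken out, beside 0.0909 between pairs of the other members. The 21, with ZNF549 itself among them, were picked for their r on these same arrays. These values therefore follow from the choice and are no test of it. Of the 21, 16 were called lower in control at 24 h than at 4 h, beside 5.07% of all genes. The other members held the remaining 31 calls, 9 higher and 22 lower. That count comes from the same fit and is no separate test.

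The 21 genes set replicate 1 apart at 4 h. Their mean deviation was 1.26, 0.38 and 0.57 in replicates 1, 2 and 3 of control, 1.24, 0.18 and 0.21 of SB, and 1.23, −0.29 and −0.11 of SB+gp120. Replicate 1 was highest in each of the 6 groups at 4 h, though by less in LPS (0.46, −0.03 and 0.29). At 24 h all arrays were below 0. ZNF549 itself read 13.59, 12.29 and 12.70 in control at 4 h and 11.42, 11.27 and 10.17 at 24 h. Further probes could be read for 10 of the 21 genes. Of their 11 further detected probes 0 reached an r of 0.8 with ZNF549 and 8 were under 0.5, while those of ZNF160, ZNF577 and ZNF430 stood at 0.667, 0.677 and 0.758. The second probe of ZNF394, detected on all arrays, had an r of 0.182 and differed by 0.14 between controls, where the brighter probe gave −1.70; the second probe of ZNF69 gave 0.21 where the brighter gave −1.77, and that of ZNF549 −0.24 where the brighter gave −1.90. The further probes of ZNF160 and ZNF577 gave −0.69 and −0.73, and that of ZNF430 was called as well, at −1.68 (adjusted p = 0.00158). What the probes of the 21 genes share was not tested.

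**Figure D5:**
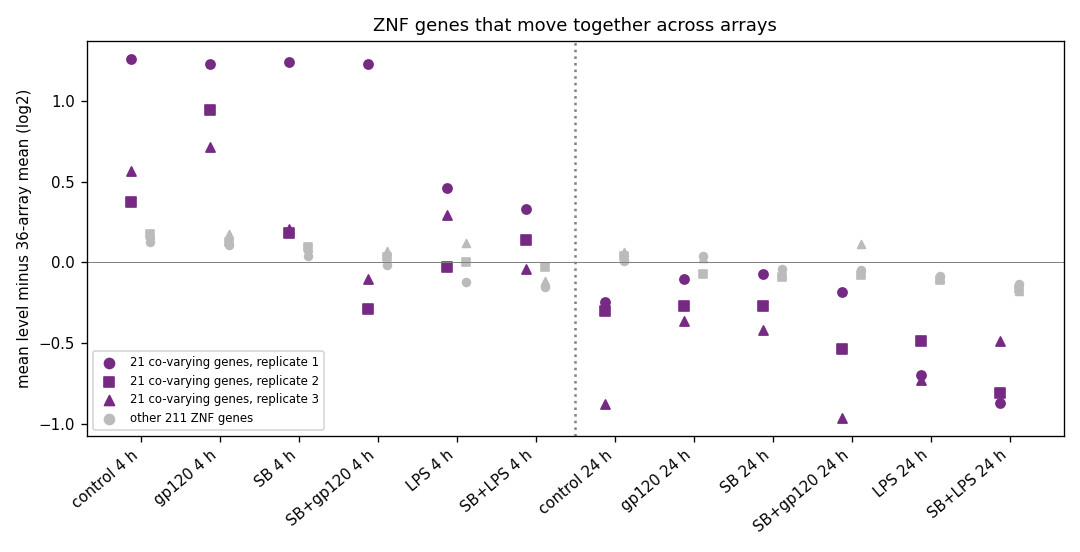
Mean deviation from the 36-array mean (log2, vertical axis) of the 21 co-varying ZNF genes (purple, marker shape by replicate) and of the other 211 ZNF genes (grey) on each array by group. Replicate 1 is the highest purple point in all 6 groups at 4 h, between 1.23 and 1.26 in control, gp120, SB and SB+gp120, while the grey points stay between −0.18 and 0.18.

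The remaining members with known roles gave no call in any comparison. They are ZNF175, ZNF10 (KOX1), source of the KRAB domain used in engineered repressors, ZNF160, ZNF274, which brings SETDB1 to zinc-finger gene clusters, ZNF93, a repressor of L1 elements, the general promoter factor ZNF143, ZNF24, and the ribosome factors ZNF598, ZNF622 and ZNF593. ZNF160 read 8.64, 8.41 and 8.06 in control at 4 h and 7.51, 7.64 and 7.03 at 24 h. Those groups did not overlap, and the difference of −0.98 did not pass the test. ZNF350 and ZNF384 were tested but missed the detection rule, and ZNF267 and ZNF292 were not tested.

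Of the 28 genes of the machinery that KRAB zinc fingers recruit, 25 were tested. LPS at 4 h called 1 higher and 5 lower (24%, beside 26.7% of all genes), with a median of −0.38 beside −0.09 for all genes. With slide 0 were called, at a median of −0.37 beside −0.12. CHD4, the NuRD helicase, gave 0.63 ± 0.20, while MPHOSPH8 and PPHLN1 of the HUSH complex gave −0.75 ± 0.21 and −0.63 ± 0.17, UHRF1 −0.89 ± 0.32, the demethylase KDM1A −0.64 ± 0.23 and HDAC2 −0.51 ± 0.19. With equal medians over all probes the list's median was −0.99 and that of all genes −0.71. Within slide 3, SB+LPS against SB called 2 of the 25, the same HUSH subunits, at −0.63 ± 0.21 and −0.67 ± 0.17. Of all genes 15.6% were called there, 9.55% lower. The list's median was −0.16, beside −0.09 for all genes. At 24 h LPS called 3 of the 25, DNMT3B (−1.15 ± 0.25), CHD4 (−0.60 ± 0.20) and MTA1 (−0.52 ± 0.16), all lower. Of all genes 11.9% were called there, 5.28% lower. The list's median was −0.23, beside −0.06 for all genes. TRIM28 was called in 1 comparison, SB+gp120 against gp120 at 24 h, at −0.84 ± 0.20 (adjusted p = 0.015), a comparison across slides. The value of TRIM28 with slide is not given here.

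Other C2H2 families were counted in the same fit for LPS at 4 h. Of 15 ZFP genes 1 was called higher and 7 lower (median −0.54), of 18 KLF and SP genes 3 and 4 (median −0.32), of 37 ZBTB genes 5 and 8 (median 0.00), and of 19 ZSCAN and ZKSCAN genes 1 and 2 (median −0.09), beside a median of −0.09 over all genes. Called shares were 53.3%, 38.9%, 35.1% and 15.8%, beside 26.7% of all genes. With slide 0, 0, 1 and 1 were called, at medians of −0.23, −0.14, 0.09 and −0.37 beside −0.12 for all genes. With equal medians over all probes the 4 medians were −0.99, −0.89, −0.63 and −0.68, where all genes stood at −0.71.

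Members were also counted by genomic neighbourhood. Of the 140 members whose next protein-coding neighbour is also ZNF-numbered, LPS at 4 h called 6 higher and 21 lower (median −0.17), and of the 88 without such a neighbour 7 and 23 (median −0.21), beside 26.7% of all genes called. At 24 h the counts were 0 and 2 of 140 and 2 and 7 of 88 (11.9% of all genes). Between the controls they were 3 and 23 of 140 and 6 and 14 of 88 (9.33% of all genes), and 17 of the 21 co-varying genes have such a neighbour.

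Over the whole design the range of a member's 12 group means had a median of 0.84 log2 units, beside 0.95 for other genes of equal signal, and 84 of the 232 spanned 1 unit or more and 10 spanned 2 or more. Of the members, 108 were called in at least 1 of the 14 comparisons (46.6%, beside 47.4% of the other genes detected on all arrays) and 124 in none. The most often called were ZNF33A in 6 comparisons, ZNF672 and ZNF697 in 5 each, and ZNF480 and ZNF746 in 4 each, counts that draw on shared control arrays. The highest group of a member was gp120 at 4 h for 40, control at 4 h for 38 and LPS at 4 h for 38, and the lowest was SB+LPS at 24 h for 51, SB+LPS at 4 h for 41 and LPS at 4 h for 34.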

How the data were processed

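The authors deposited raw bead intensity with a detection p-value per probe for 36 Illumina HumanHT-12 v4 arrays, per the file headers, and a table of log2 values. These log2 values, deposited by the authors, lay within 0.098 of log2 quantile-normalised raw intensity and served as an alternative. The genome build is not given in the sources used here. Among the deposited columns, 72 of other bead measures were not used, and 0 columns of per-sample values belonged to no sample here.

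Raw intensity was background-corrected by normal-exponential fitting with the background inferred from detection p-values, offset 16, quantile-normalised and put on the log2 scale by the neqc function (limma 3.58.1, R 4.3.3). Probes with 1 platform symbol (30112 of 47222; 8 had several and 17102 none; 30073 matched the RefSeq gene table) and a detection p under 0.05 on 3 or more arrays were kept (26473), and the probe of highest mean stood for its gene (13582 genes). Of the 232 members, 72 had several detected probes. limma's moderated test was fitted to all 12 groups, with Benjamini-Hochberg adjustment over all genes at 0.05. The shift is the median of the members less that of other genes matched in 20 bins of mean signal. A constant added to an array cancels in it, so its value with equal medians is no check on the scaling. The script was tested on simulated data.

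Alternatives for the values were no background correction, equal array medians over all probes or over detected probes, and the authors' log2 values. For the genes they were no detection filter, a detection p under 0.01, the mean of the detected probes, and all ZNF genes on 3 or more arrays. For the fit they were a replicate block, only the groups compared, a trended robust prior, and leaving out each array. Slide was also taken as a block in a model with no 3-way interaction of stimulus, SB and time. Leaving out the 2 dimmest arrays, or the co-varying genes, was chosen after seeing the data. The co-varying genes were left out of the counts and shifts only, with the fit unchanged. Same-numbered replicates deviated together, every pair's correlation being over 0.1, in all 6 comparisons at 4 h and, at 24 h, in SB+LPS against SB. The numbers were taken to pair the samples there. The main fit, with its errors and adjusted p, did not use that pairing, and the replicate block was an alternative.

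The genes named are, in each comparison, called members with non-overlapping groups, up to 6 that rose most and 6 that fell most (4 and 4 for LPS by time), the 3 smallest p-values where fewer than 3 were called, and a list of 22 genes with known roles. The members and lists were chosen with earlier results of these data known. Classes by KRAB domain or finger number were not analysed here. The number of arrays limits the precision.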

Additional observations from a re-analysis of the deposited data

Results flagged for a closer look

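The LPS difference at 24 h differed from that at 4 h, by the interaction term of limma's fit, for 13 ZNF genes. They are 5.6% of the members, beside 12.2% of all genes. The signed value is the difference at 24 h less that at 4 h, in log2 units. It was −1.56 for ZNF697, −1.29 for ZNF33A, −1.24 for ZNF638, −1.15 for ZNF189, −1.05 for ZNF746, −1.04 for ZNF691, −0.76 for ZNF672 and −0.56 for ZNF839. It was 1.11 for ZNF385A, 0.90 for ZNF217, 0.87 for ZNF252P, 0.87 for ZNF232 and 0.82 for ZNF30. ZNF697 was called higher with LPS at both times, by 2.84 and 1.28. ZNF746, ZNF691 and ZNF672 were called higher at 4 h (1.23, 0.84 and 0.74) and read 0.18, −0.20 and −0.03 at 24 h. ZNF252P and ZNF232 were called lower at 4 h (−0.95 and −0.82) and read −0.08 and 0.04 at 24 h. ZNF385A and ZNF30 passed the test at neither time, at −0.37 and −0.36 at 4 h and 0.74 and 0.46 at 24 h. ZNF839 was called at 24 h alone, at −0.40. The second probe of ZNF232, detected on 35 arrays, read −0.27 at 4 h (adjusted p = 0.438) and 0.09 for the difference between times. In the model with slide, which takes the 3-way interaction to be 0 and has standard errors 1.41 times as large, 0 of the 13 were called. The values were then −2.27 for ZNF697, −1.15 for ZNF638, −1.08 for ZNF189, −0.94 for ZNF33A, −0.72 for ZNF746, 0.63 for ZNF232 and 0.52 for ZNF252P. ZNF385A, ZNF839, ZNF691 and ZNF217 came to 0.27, −0.20, −0.07 and 0.06, and ZNF30 and ZNF672 changed sign, to −0.62 and 0.23. Control at 4 h lay on slide 2, LPS at 4 h on slide 3 and both groups at 24 h on slide 1, so the slide's part cannot be told apart from time.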

How the results depend on the processing

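Of the alternatives' values, 205 counts stayed within 1.5 times, a 0 that stayed 0 included, and 83 moved. Of the shifts 263 stayed, 9 moved and 2 reversed. Of single-gene values 1260 kept direction and call, 317 lost the call, 11 gained one and 9 reversed. gp120 gave 0 calls at both times with each array left out. Counts of ZNF genes called follow, by setting. Shares of all genes are not given beside them, so a changed count is no result about ZNF genes alone. Without background correction SB at 24 h gave 1 and SB+LPS against LPS at 24 h 0. With equal medians over all probes LPS at 4 h gave 156, SB+LPS against SB at 4 h 133, LPS at 24 h 4, and SB+LPS against LPS at 4 h and 24 h, SB+gp120 at 24 h and SB+LPS against SB at 24 h 0 each; over detected probes SB+LPS against LPS at 4 h gave 2. The authors' log2 values gave 1 for SB at 24 h, 0 for SB+LPS against LPS at 24 h and 5 for SB+LPS against SB at 24 h. All ZNF genes on 3 or more arrays gave 100 for LPS at 4 h, 67 for SB+LPS against SB at 4 h, 19 for LPS at 24 h, 1 for SB at 24 h and 27 for LPS by time. The replicate block gave 19 for SB+LPS against LPS at 4 h, 19 for LPS at 24 h, 2 for SB at 24 h, 13 for SB+gp120 at 24 h, 6 for SB+LPS against SB at 24 h and 21 for LPS by time. The block within each time gave 27, 25, 3, 16 and 12 for the first 5 of these and 4 for SB+LPS against LPS at 24 h. Only the groups compared gave 21 for LPS at 4 h, 0 for SB+LPS against LPS at 4 h, 7 for SB+LPS against SB at 4 h, 18 for LPS at 24 h, 1 for SB at 24 h, 0 for SB+gp120 at 24 h and 17 for SB+LPS against SB at 24 h. The trended robust prior gave 0 for SB+LPS against LPS at 24 h. Slide as a block, which takes the 3-way interaction of stimulus, SB and time to be 0, gave 2 for LPS at 4 h (shift −0.023), 1 for SB+gp120 at 4 h (−0.072), and 0 for SB+LPS against LPS at 24 h (−0.172), SB+gp120 at 24 h (−0.096), SB+LPS against SB at 24 h (−0.224), control by time (−0.058) and LPS by time (−0.018); the shift of SB at 4 h became 0.006. Without the 2 dimmest arrays LPS at 4 h gave 29, SB+LPS against LPS 2, SB+LPS against SB 24 and LPS by time 7 (shift 0.016). Control by time gave 31 once the co-varying genes were left out of the count, with the fit unchanged. Leaving out 1 array gave 28 to 68 for LPS at 4 h, 2 to 11 for SB+LPS against LPS, 17 to 38 for SB+LPS against SB and 0 to 2 for SB+gp120 at 4 h. At 24 h it gave 4 to 9 for LPS, 0 to 1 for SB, 0 to 0 for SB+LPS against LPS, 1 to 13 for SB+gp120 and 0 to 2 for SB+LPS against SB; it gave 17 to 42 for control by time and 5 to 15 for LPS by time (shift 0.016 to 0.147). Single genes that reversed were ZNF691 with LPS at 4 h (−0.021 with equal medians, −0.129 with slide), ZNF746, ZNF140 and ZNF225 for SB+LPS against SB at 4 h (−0.262, −0.275 and −0.244 with equal medians), and, with slide, ZNF25 with LPS at 4 h (0.034), ZNF217 and ZNF131 with SB at 4 h (0.28 and 0.33) and ZNF337 with SB+gp120 at 4 h (0.20). The cause was not tested.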
